A study of Danio rerio with 4 samples.

Results

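The genes described here are the zebrafish genes whose symbol begins with znf and a digit, the general symbol for zinc finger genes. They were picked by symbol, in either case of letters, and by a mean level of at least 1 FPKM (fragments per kilobase of gene, scaled to the size of the library) over the 4 libraries of the study. The rule left 181 genes of 264 rows with such a symbol, in a table of 31870 gene identifiers. Of the 83 rows below the threshold, 5 were at 0 in every library. Of the 181 genes, 84 have a symbol of 4 digits (znf1000 and above) and 97 one of up to 3 digits. In the table of names used, 50 of the 181 carry a symbol in its human form, in capitals.

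A zinc finger is a short protein fold in which cysteine and histidine residues hold a zinc ion, and rows of such fingers mostly read DNA, while some bind RNA or other proteins. Zebrafish, like other vertebrates, hold large families of zinc finger genes in tandem arrays, and most of their numbered members have no described function. Genes with a low number more often have a human counterpart with a known role, such as ZNF143, which binds promoters, or ZNF622, a ribosome assembly factor. At the maternal-to-zygotic transition, the egg's stored transcripts are removed and the embryo's own genome is switched on.

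The study measured total RNA, depleted of ribosomal RNA, in embryos of 2 genotypes at 6 and at 0 hours post fertilisation (hpf). Mybx1 embryos were maternal ybx1 mutants and WT embryos were wild type. The product of ybx1 is an mRNA-binding protein with a cold-shock domain that coats stored transcripts. Allele, strain and the number of embryos behind a library are not given in the sources used here. There was 1 library in each of the 4 groups, so no difference has a replicate check, no p-value is given, and each difference compares 2 libraries. The library totals behind the FPKM values, recovered from the steps between low values, were 6042830 reads for Mybx1 and 6240685 for WT at 6 hpf, and 7303656 for Mybx1 and 7570070 for WT at 0 hpf. ybx1 itself had 54.2 FPKM in Mybx1 and 2287 in WT at 6 hpf, against 11.9 in Mybx1 and 338 in WT at 0 hpf. Of 6 egg and oocyte markers the levels added up to 758 FPKM in Mybx1 and 55.6 in WT at 6 hpf, against 2281 in Mybx1 and 2267 in WT at 0 hpf. Those of 6 gastrula markers added up to 7.74 FPKM in Mybx1 and 1258 in WT at 6 hpf, against 1.90 in Mybx1 and 0.727 in WT at 0 hpf, where 1 and 4 of the 6 were at 0. In Mybx1 at 6 hpf, 1 of the 6 gastrula markers, eve1, was also at 0. The blood marker cahz had 0.191 FPKM in Mybx1 and 15.4 FPKM in WT at 6 hpf. The liver marker fabp10a had 0.413 FPKM in Mybx1, from 1 read, and 0.799 FPKM in WT, from 2 reads. Both were at 0 in the 0 hpf libraries. The markers hbba1 (blood), mylpfa (muscle) and odf3b (testis) were not found by symbol.

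Most znf genes were expressed at low levels. Their median level was 4.12 FPKM in Mybx1 and 6.15 FPKM in WT at 6 hpf, against 4.52 FPKM in Mybx1 and 6.05 FPKM in WT at 0 hpf. Over all 15376 genes of the table with a mean of at least 1 FPKM, the median level was 11.1 FPKM in Mybx1 and 7.03 in WT at 6 hpf, against 12.5 in Mybx1 and 12.8 in WT at 0 hpf. Over all 259 znf rows above 0 in any library, with no threshold on the mean, 98 were below 1 FPKM in Mybx1 (37.8%) and 58 in WT (22.4%) at 6 hpf, against 116 in Mybx1 (44.8%) and 119 in WT (45.9%) at 0 hpf. Over all 25595 rows of the table above 0, the shares below 1 FPKM were 40.6% in Mybx1 and 44.0% in WT at 6 hpf, against 45.4% in Mybx1 and 48.4% in WT at 0 hpf. Together the znf genes took 0.378% of all FPKM in Mybx1 and 0.299% in WT at 6 hpf, against 0.382% in Mybx1 and 0.397% in WT at 0 hpf.

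Genes with 4-digit symbols had a median level of 2.49 FPKM in Mybx1 and 5.17 FPKM in WT at 6 hpf, against 2.46 FPKM in Mybx1 and 1.63 FPKM in WT at 0 hpf. A gene can pass the threshold on the mean through WT at 6 hpf alone, so the number of the 84 below 1 FPKM in that library is partly fixed by the choice of genes. With no threshold on the mean, of all 138 rows with a 4-digit symbol that were above 0 in any library, 68 were below 1 FPKM in Mybx1 and 31 in WT at 6 hpf, against 83 in Mybx1 and 88 in WT at 0 hpf. Of the 121 such rows of up to 3 digits, 30 were below 1 FPKM in Mybx1 and 27 in WT at 6 hpf, against 33 in Mybx1 and 31 in WT at 0 hpf. Genes with symbols of up to 3 digits had a median level of 7.69 FPKM in Mybx1 and 9.09 FPKM in WT at 6 hpf, against 8.16 FPKM in Mybx1 and 12.3 FPKM in WT at 0 hpf. The highest summed level of the 4-digit genes was 568 FPKM, in WT at 6 hpf, while that library had the lowest sum for the genes of up to 3 digits, 1670 FPKM. In the other 3 libraries these sums lay between 325 and 355 FPKM for the 4-digit genes and between 2076 and 2140 FPKM for the genes of up to 3 digits.

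**Figure D1:**
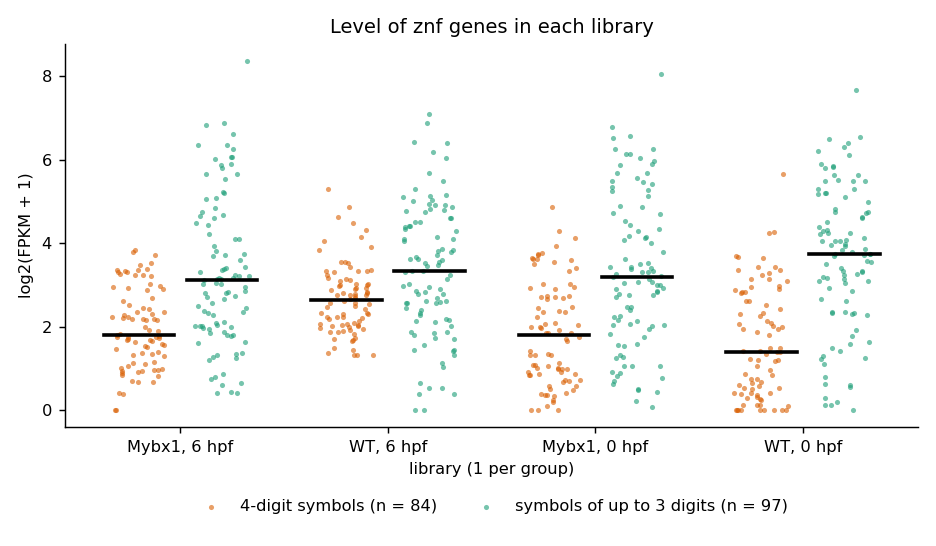
Each point is the level of 1 znf gene in 1 library on log2(FPKM + 1), with the 84 genes of 4-digit symbols in orange, the 97 genes of up to 3 digits in green and black lines at the medians. The 4-digit genes have a median of 5.17 FPKM in WT at 6 hpf, a library through which a gene can pass the threshold on the mean, and medians of 1.63 to 2.49 FPKM in the other 3 libraries.

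Few znf genes were abundant. ZNF395 (ENSDARG00000060113) had the highest mean, with 327 FPKM in Mybx1 and 135 FPKM in WT at 6 hpf, against 263 FPKM in Mybx1 and 202 FPKM in WT at 0 hpf. The next 4 by mean level were znf576.2, ZNF281 (ENSDARG00000035910), ZNF326 and znf346. znf576.2 was nearly level, with 96.6 FPKM in Mybx1 and 83.7 FPKM in WT at 6 hpf, against 90.9 FPKM in Mybx1 and 92.9 FPKM in WT at 0 hpf. ZNF281, known in mouse embryonic stem cells as a regulator of pluripotency genes, had 112 FPKM in Mybx1 and 84.6 FPKM in WT at 6 hpf, against 93.6 FPKM in Mybx1 and 73.3 FPKM in WT at 0 hpf. At the other end, the genes just inside the threshold were znf992, with a mean of 1.06 FPKM over the 4 libraries, and znf1013, also with a mean of 1.06 FPKM. Just outside it were ZNF385B, with a mean of 0.990 FPKM, and znf1106, with a mean of 0.971 FPKM and a single high library, 3.21 FPKM in WT at 6 hpf.

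The reads behind a gene, taken as the smallest whole reads that give its FPKM values, added up to between 7 and 11692 over the 4 libraries, with a median of 292. The median was 99.5 reads for the 4-digit genes and 954 reads for the genes of up to 3 digits, so values of the 4-digit genes carry the larger counting error. Folds of single genes below are FPKM ratios, and the 95% interval beside each is exact (Clopper-Pearson, from the split of the reads between the libraries) and covers counting error only. The treatment of reads that match several genes is not given in the sources used here. Levels of near-identical neighbours in a tandem array are therefore uncertain. Nor is the strand setting given, so a gene's reads may include those of an antisense gene that overlaps it.

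Across the stages, far fewer znf genes changed in Mybx1 than in WT, and the same held for all genes. A gene was called when it was at least 2-fold apart on log2(FPKM + 1), on which a gene of low level shows less than its true fold. At 6 relative to 0 hpf, 12 of the 181 genes rose (6.63%) and 6 fell (3.31%) in Mybx1, where 7.81% of all genes rose and 6.78% fell. In WT, 64 rose (35.4%) and 37 fell (20.4%), where 21.4% of all genes rose and 40.9% fell. The median change of the znf genes was -0.06 in Mybx1 and 0.29 in WT on the log2 scale, beside -0.05 and -0.61 for all genes in those genotypes. At a mean of at least 5 FPKM the direction in WT turned: 16 of 95 znf genes rose and 29 fell, with a median of -0.41, beside 16.4% and 47.7% of all genes and a median of -0.90.

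The rises in WT lay mostly among the 4-digit genes. Of these 84 genes, 10 rose and 3 fell in Mybx1, with a median log2 change of -0.06, while 42 rose and 5 fell in WT, with a median of 1.08. At a mean of at least 5 FPKM, which left 26 of the 4-digit genes, 6 rose and 3 fell in WT and the median turned to -0.12, while 10 of the 69 genes of up to 3 digits rose and 26 fell. Of the 97 genes of up to 3 digits, 2 rose and 3 fell in Mybx1, with a median of -0.06, while 22 rose and 32 fell in WT, with a median of -0.49. A gene near 0 in 3 libraries could pass the level threshold only through the library in which it was high, so it had to differ. Of the 64 genes that rose in WT, 15 were below 1 FPKM in each of the other 3 libraries. More of the 64, such as znf1065, had too little in those 3 libraries to pass without WT at 6 hpf. This wider group was not counted, so 15 is a lower limit for the genes that needed that library. Over all 259 znf rows above 0 in any library, with no threshold on the mean, 13 rose and 6 fell in Mybx1, beside 6.15% and 4.33% of all genes. In WT 84 of these rows rose and 38 fell, beside 16.7% and 25.2% of all genes. The 20 rows that rose in WT below the threshold had a median level of 1.84 FPKM in WT at 6 hpf. They included 17 with 4-digit symbols. Of the 142 rows with such symbols 84 were above the threshold, so these symbols also made up most of the rows below it.

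These shares depend on how the libraries are scaled, because FPKM values are shares of a library. With size factors from the median ratio over genes present in all libraries, the median change of all genes in WT was -0.02 in place of -0.61. On that scale 88 znf genes rose and 23 fell in WT, so that 79.3% of the called znf genes were rises, in place of 63.4%. Over all genes 30% rose and 28% fell in WT on that scale. The median of the genes of up to 3 digits in WT then turned to 0.20, while that of the 4-digit genes was 1.65. TPM, which is FPKM set to the same sum in each library, moved the shares the other way. In TPM 59 znf genes rose and 50 fell in WT, so that 54.1% of the called znf genes were rises. Over all genes 19.6% rose and 47.2% fell in WT in TPM. The median in TPM was 0.97 for the 4-digit genes and -0.75 for the genes of up to 3 digits.

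**Figure D2:**
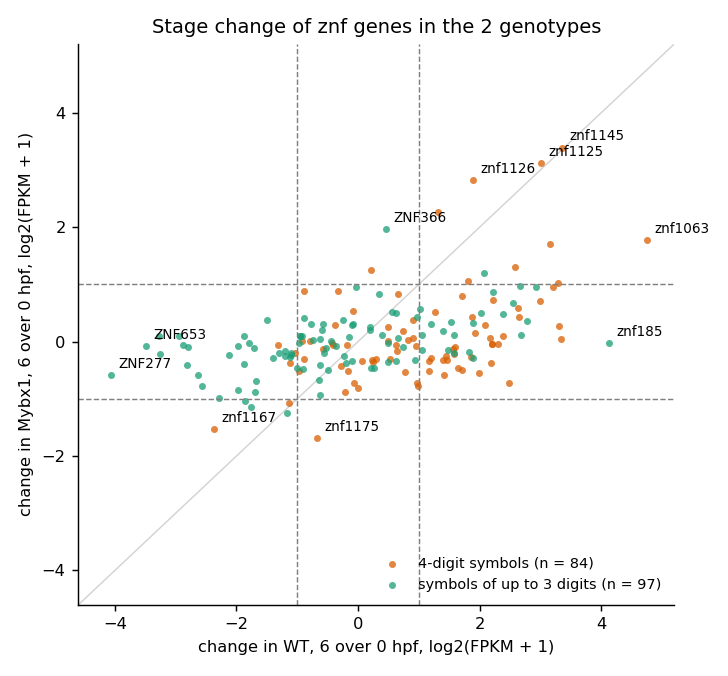
Each point is 1 of the 181 znf genes, with its change at 6 over 0 hpf in Mybx1 on the vertical axis and in WT on the horizontal axis, both on log2(FPKM + 1); dashed lines mark 2-fold and the grey line marks equal change. Most points lie between the horizontal dashed lines: 12 genes rose and 6 fell in Mybx1, while 64 rose and 37 fell in WT.

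The largest rises in WT on log2(FPKM + 1), which ranks differently from the FPKM ratio, were those of znf1063, znf185, znf1145, znf1064 and znf1062. znf1063 had 3.51 FPKM in Mybx1 and 27.9 FPKM in WT at 6 hpf, against 0.322 FPKM in Mybx1 and 0.0778 FPKM in WT at 0 hpf. It rose in both genotypes, by 10.9-fold (3.90 to 42.1) in Mybx1 and by 359-fold (63.9 to 14229) in WT, and its 6 hpf level in Mybx1 was 7.96-fold (5.62 to 11.6) below WT. Without WT at 6 hpf, znf1063 fell just short of the threshold on the mean, so that library was needed for its choice. znf185, whose human counterpart is a LIM-domain protein of the actin cytoskeleton despite its name, had 0.325 FPKM in Mybx1 and 19.2 FPKM in WT at 6 hpf, against 0.346 FPKM in Mybx1 and 0.148 FPKM in WT at 0 hpf. It was high in 1 of the 4 libraries, the one through which it passed the threshold on the mean. That pattern was thus a condition of its choice. At 6 hpf it was 58.9-fold (28.4 to 147) lower in Mybx1 than in WT.

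znf1064 and znf1062 had no read in WT at 0 hpf. znf1064 had 0.868 FPKM in Mybx1 and 9.12 FPKM in WT at 6 hpf, against 0.820 FPKM in Mybx1 at 0 hpf. Measured against the 3 reads taken as the floor for a library with none, it rose at least 30.7-fold in WT. znf1062 had 1.18 FPKM in Mybx1 and 8.92 FPKM in WT at 6 hpf, against 0.811 FPKM in Mybx1 at 0 hpf, and rose at least 19.0-fold in WT. Both were thus low in 3 libraries and high in WT at 6 hpf, the library through which they passed the threshold on the mean. That pattern was a condition of their choice. In Mybx1 at 6 hpf they were 10.5-fold (4.86 to 27.0) and 7.58-fold (3.24 to 21.7) below WT.

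znf1145 went another way, with a rise of like size in both genotypes. It had 9.49 FPKM in Mybx1 and 9.18 FPKM in WT at 6 hpf and no read in either library at 0 hpf, which gave a rise of at least 18.9-fold in Mybx1 and at least 19.0-fold in WT. It was 1 of 10 genes that rose in both.

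The largest rises in Mybx1 on log2(FPKM + 1) after znf1145 were those of znf1125, znf1126, znf1127 and ZNF366. znf1125 had 8.20 FPKM in Mybx1 and 7.02 FPKM in WT at 6 hpf, against 0.0606 FPKM in Mybx1 and no read in WT at 0 hpf. It rose 135-fold (23.8 to 5394) in Mybx1 and at least 40.0-fold in WT. znf1126 had 7.08 FPKM in Mybx1 and 2.98 FPKM in WT at 6 hpf, against 0.141 FPKM in Mybx1 and 0.0681 FPKM in WT at 0 hpf. Its rise was 50.2-fold (13.5 to 421) in Mybx1 and 43.7-fold (7.35 to 1772) in WT, and at 6 hpf it was 2.38-fold (1.59 to 3.63) higher in Mybx1. znf1127 had 5.12 FPKM in Mybx1 and 1.49 FPKM in WT at 6 hpf, against 0.283 FPKM in Mybx1 and no read in WT at 0 hpf, and rose 18.1-fold (4.60 to 157) in Mybx1 and at least 3.64-fold in WT. These 3 genes have consecutive numbers, and each was below 1 FPKM in both libraries at 0 hpf. At 6 hpf znf1126 and znf1127 were higher in Mybx1 past 2-fold, and znf1125 was within 2-fold. Both znf1126 and znf1127 passed the threshold on the mean only with their level in Mybx1 at 6 hpf. Their rise and their excess in that library were thus partly a condition of their choice.

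ZNF366, known in human and mouse for its expression in dendritic cells, passed the 2-fold call by stage in Mybx1 and not in WT. It had 20.5 FPKM in Mybx1 and 1.96 FPKM in WT at 6 hpf, against 4.49 FPKM in Mybx1 and 1.16 FPKM in WT at 0 hpf. The rise in Mybx1 was 4.56-fold (3.52 to 5.96), and the gene was above WT at both stages, by 10.4-fold (7.07 to 16.0) at 6 hpf and 3.89-fold (2.35 to 6.72) at 0 hpf.

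The largest falls in WT were those of genes of up to 3 digits that were present in the egg. ZNF326, which in human cells belongs to a complex that links transcript elongation to splicing, had 117 FPKM in Mybx1 and 8.36 FPKM in WT at 6 hpf, against 110 FPKM in Mybx1 and 89.6 FPKM in WT at 0 hpf. It fell 10.7-fold (8.44 to 13.8) in WT, and at 6 hpf it was 14.0-fold (11.1 to 18.1) higher in Mybx1. ZNF277 had 24.5 FPKM in Mybx1 and 1.70 FPKM in WT at 6 hpf, against 37.2 FPKM in Mybx1 and 44.0 FPKM in WT at 0 hpf. It fell 25.9-fold (15.8 to 45.6) in WT and was 14.4-fold (8.67 to 25.6) higher in Mybx1 at 6 hpf. In both genes the WT library at 6 hpf was far below the other 3.

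In ZNF653, ZNF710 (ENSDARG00000014680) and znf692 the WT library at 6 hpf was also the lowest of the 4. ZNF653 had 54.3 FPKM in Mybx1 and 3.02 FPKM in WT at 6 hpf, against 57.2 FPKM in Mybx1 and 43.9 FPKM in WT at 0 hpf. It fell 14.5-fold (10.2 to 21.3) in WT and was 18.0-fold (12.6 to 26.4) higher in Mybx1 at 6 hpf. ZNF710 had 80.4 FPKM in Mybx1 and 6.74 FPKM in WT at 6 hpf, against 75.0 FPKM in Mybx1 and 58.8 FPKM in WT at 0 hpf. It fell 8.72-fold (7.10 to 10.8) in WT, while the Mybx1 libraries stayed within 2-fold of each other. The other ZNF710 identifier, ENSDARG00000005549, had 2.11 FPKM in Mybx1 and 1.69 FPKM in WT at 6 hpf. At 0 hpf it had 3.67 FPKM in Mybx1 and 15.7 FPKM in WT. It was thus lower in Mybx1 past 2-fold at 0 hpf and within 2-fold at 6 hpf, with log2 differences of -1.84 and 0.21. znf692 had 17.7 FPKM in Mybx1 and no read in WT at 6 hpf, against 20.7 FPKM in Mybx1 and 8.51 FPKM in WT at 0 hpf. It fell at least 20.1-fold in WT and was at least 41.7-fold higher in Mybx1 at 6 hpf, and at 0 hpf it was already 2.43-fold (1.84 to 3.24) higher in Mybx1.

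The 6 falls in Mybx1 were smaller. znf1175 had 0.582 FPKM in Mybx1 and 2.82 FPKM in WT at 6 hpf, against 4.09 FPKM in Mybx1 and 5.11 FPKM in WT at 0 hpf, a fall of 7.03-fold (1.67 to 62.8) in Mybx1. znf1167 had 9.07 FPKM in Mybx1 and 2.74 FPKM in WT at 6 hpf, against 28.1 FPKM in Mybx1 and 18.4 FPKM in WT at 0 hpf. It fell in both genotypes, by 3.10-fold (2.25 to 4.36) in Mybx1 and by 6.71-fold (3.91 to 12.3) in WT. ZNF143 (ENSDARG00000041581) had 25.7 FPKM in Mybx1 and 15.5 FPKM in WT at 6 hpf, against 58.2 FPKM in Mybx1 and 55.0 FPKM in WT at 0 hpf, and fell 2.27-fold (2.01 to 2.57) in Mybx1 and 3.54-fold (3.06 to 4.11) in WT. The other ZNF143 identifier, ENSDARG00000012887, stayed within 2-fold in both genotypes, with log2 changes of -0.20 in Mybx1 and -0.56 in WT. znf989 and znf1174 fell 2.73-fold and 2.23-fold in Mybx1.

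**Figure D3:**
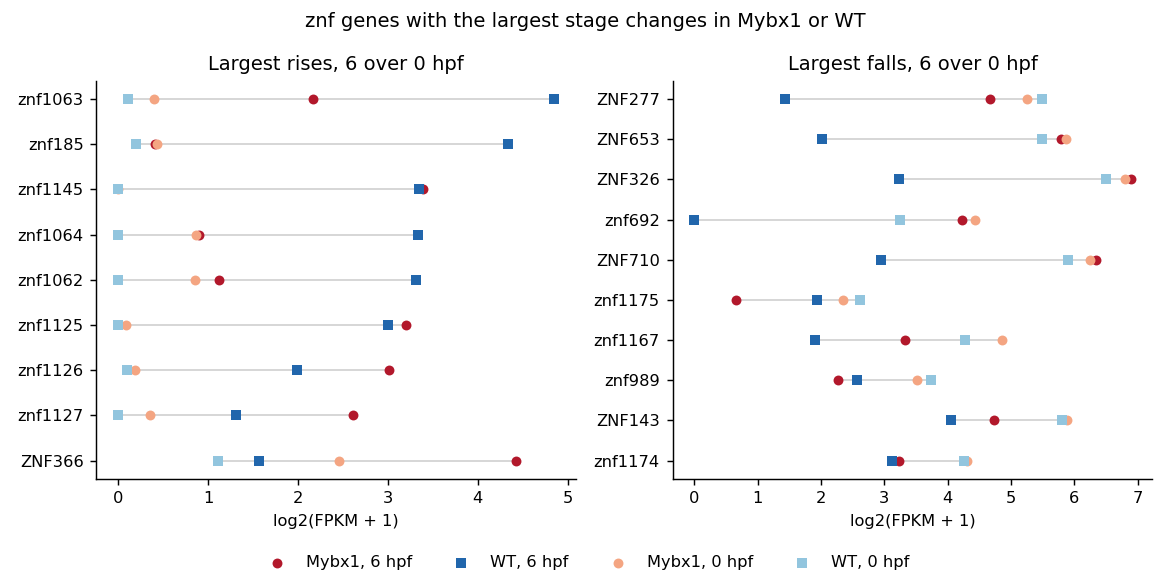
The level of the znf genes with the largest rises (left) and falls (right) at 6 over 0 hpf in Mybx1 or WT, on log2(FPKM + 1), with circles for Mybx1, squares for WT, dark colours for 6 hpf and light colours for 0 hpf. In the upper 5 falls and in 4 of the upper 5 rises, all but znf1145, the dark square stands apart from the other 3 symbols, as for ZNF326 with 8.36 FPKM in WT at 6 hpf and 89.6 to 117 FPKM elsewhere.

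Set gene by gene, the changes of the genotypes rest on 4 different libraries. Of the 64 znf genes with a rise in WT, 10 also rose in Mybx1 (15.6%) and 54 stayed within 2-fold. Over all genes tested, 997 of the 3283 with a rise in WT also rose in Mybx1 (30.4%). Of the 64 znf genes, 15 were below 1 FPKM in all libraries but WT at 6 hpf. For them no rise in Mybx1 could be called on log2(FPKM + 1). How many of the 3283 were so low was not counted. Of the 37 that fell in WT, 5 fell in Mybx1 (13.5%) and 32 stayed within 2-fold, beside 12.3% for all genes. None of the 181 genes moved past 2-fold in opposite directions. Such genes were rare over all genes too. Of the 3283 that rose in WT 38 fell in Mybx1 (1.16%), and of the 6285 that fell in WT 17 rose (0.27%). Among the 80 znf genes within 2-fold in WT, 2 rose (2.5%) and 1 fell (1.25%) in Mybx1, beside 3.22% and 3.98% for all genes. The genes that rose in both were 9 of the 42 rising 4-digit genes and 1 of the 22 rising genes of up to 3 digits. Across the 181 genes the changes in the genotypes had a Pearson r of 0.47 and a Spearman rho of 0.44, a description in which all points share the same 4 libraries; over all genes r was 0.58 and rho 0.55.

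As medians, the 64 genes that rose in WT stood at 2.23 FPKM in Mybx1 and 6.31 FPKM in WT at 6 hpf, against 1.08 FPKM in Mybx1 and 0.530 FPKM in WT at 0 hpf. In WT at 0 hpf, 10 of the 64 had no read. At 6 hpf 14 of them reached at least 50% of the WT level in Mybx1. The 64 genes were picked by their levels in WT, so both counts are partly fixed by that choice. Neither count was made over all genes. The 37 that fell in WT stood at 8.40 FPKM in Mybx1 and 3.45 FPKM in WT at 6 hpf, against 11.3 FPKM in Mybx1 and 15.4 FPKM in WT at 0 hpf.

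At 6 hpf, more znf genes were lower in Mybx1 than higher. Of the 181 genes, 29 were higher and 66 lower in Mybx1 than in WT, where 39.6% of all genes were higher and 19.1% lower. The median difference was -0.48 for the znf genes and 0.58 for all genes on the log2 scale. At a mean of at least 5 FPKM this median turned to 0.20, with 22 of 95 znf genes higher and 25 lower in Mybx1, beside 42.9% and 16.6% of all genes and a median of 0.70. Among the 4-digit genes 5 were higher and 34 lower in Mybx1, with a median of -0.75, which became 0.03 for the 26 with a mean of at least 5 FPKM. Among the genes of up to 3 digits 24 were higher and 32 lower, with a median of 0.12. With no threshold on the mean, 30 of 259 rows were higher and 75 lower, beside 25.4% and 14% of all genes. This comparison shares the Mybx1 library with the stage change in Mybx1 and the WT library with that in WT, so its values are not independent of those above.

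Size factors from the median ratio moved the median difference of all genes at 6 hpf to -0.06. On that scale 16 znf genes were higher and 94 lower in Mybx1, so that 14.5% of the called znf genes were higher, in place of 30.5%. Over all genes 26.1% were higher and 30.2% lower on that scale. The median of the 4-digit genes was then -1.37 and that of the genes of up to 3 digits turned to -0.55. In TPM 38 znf genes were higher and 62 lower in Mybx1 at 6 hpf, so that 38% of the called znf genes were higher. Over all genes 45.6% were higher and 17.2% lower in TPM. The median in TPM was -0.60 for the 4-digit genes and 0.33 for the genes of up to 3 digits. The gastrula and egg markers given above differed between the 6 hpf libraries as well, and their part in these counts was not tested. In whole embryos, fewer cells of a type and less RNA per cell cannot be told apart.

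Besides znf185 and znf1063, the genes furthest below WT in Mybx1 at 6 hpf were znf1035, znf638 and ZNF217. znf638, whose human counterpart silences unintegrated retroviral DNA, had 4.45 FPKM in Mybx1 and 38.1 FPKM in WT at 6 hpf, against 3.37 FPKM in Mybx1 and 9.51 FPKM in WT at 0 hpf. It was 8.56-fold (7.32 to 10.1) lower in Mybx1 at 6 hpf and 2.82-fold (2.36 to 3.40) lower at 0 hpf, so the gap was present in the egg and larger at the later stage. ZNF217, in human cells a partner of corepressor complexes, had 2.85 FPKM in Mybx1 and 23.1 FPKM in WT at 6 hpf, against 4.28 FPKM in Mybx1 and 19.8 FPKM in WT at 0 hpf. It was lower in Mybx1 at both stages, by 8.11-fold (6.44 to 10.3) at 6 hpf and 4.62-fold (3.86 to 5.55) at 0 hpf.

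In the egg, before the genome is switched on, 14 of the 181 genes were higher and 23 lower in Mybx1 than in WT, where 8.2% of all genes were higher and 6.03% lower. The median difference was 0.08 for the znf genes and 0.06 for all genes. With no threshold on the mean, 15 of 259 rows were higher and 24 lower, beside 5.67% and 3.9% of all genes. With median-ratio size factors 8 were higher and 22 lower, so that 26.7% of the called znf genes were higher, in place of 37.8%, beside 6.82% of all genes higher and 6.59% lower on that scale. Of the 23 lower genes, 20 have symbols of up to 3 digits, and of the 14 higher genes 9 have 4-digit symbols. Of the 6 egg markers 1 was past 2-fold at 0 hpf: zp3b, an egg coat gene, had 121 FPKM in Mybx1 and 354 FPKM in WT. Its part in these counts was not tested.

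znf1035 was the furthest below WT. It had 1.74 FPKM in Mybx1 and 38.6 FPKM in WT at 6 hpf, against 0.491 FPKM in Mybx1 and 49.1 FPKM in WT at 0 hpf. It was the most abundant 4-digit gene in WT at both stages, and in Mybx1 it was 22.2-fold (18.1 to 27.4) lower at 6 hpf and 99.99-fold (71.1 to 145) lower at 0 hpf. In Mybx1 its level at 6 hpf was 3.55-fold (2.37 to 5.45) that at 0 hpf, which on log2(FPKM + 1) stayed within 2-fold.

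znf770 and ZNF592 followed. znf770 had 3.22 FPKM in Mybx1 and 19.9 FPKM in WT at 6 hpf, against 1.37 FPKM in Mybx1 and 15.4 FPKM in WT at 0 hpf, and was 11.3-fold (8.20 to 15.9) lower in Mybx1 at 0 hpf. ZNF592 had 0.569 FPKM in Mybx1 and 3.56 FPKM in WT at 6 hpf, against 0.533 FPKM in Mybx1 and 6.60 FPKM in WT at 0 hpf, and was 12.4-fold (7.55 to 21.6) lower in Mybx1 at 0 hpf. In human cells ZNF592, ZNF532 and ZNF687 form 1 complex on chromatin, and ZNF532 was also lower in Mybx1 at 0 hpf, by 5.79-fold (3.39 to 10.5). ZNF687, with 7.82 FPKM in Mybx1 and 14.4 FPKM in WT at 0 hpf, stayed within 2-fold on log2(FPKM + 1), and its second gene znf687a had 16.8 FPKM in Mybx1 and 11.9 FPKM in WT. Next in order on log2(FPKM + 1) was znf280d, 4.95-fold (4.22 to 5.84) lower with 7.24 FPKM in Mybx1 and 35.8 FPKM in WT at 0 hpf. After it came znf991, 4.47-fold lower with 5.81 FPKM in Mybx1 and 26.0 FPKM in WT at 0 hpf.

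Many of the lower genes were lower at the later stage too. At 6 hpf 14 of the 23 were lower in Mybx1, 9 were within 2-fold and 0 were higher, where over all genes 361 of the 927 lower at 0 hpf were lower at 6 hpf (38.9%) and 93 were higher. Their median level was 2.62 FPKM in Mybx1 and 9.97 FPKM in WT at 6 hpf, against 2.85 FPKM in Mybx1 and 9.51 FPKM in WT at 0 hpf. Of the 144 znf genes within 2-fold at 0 hpf, 52 were also lower in Mybx1 at 6 hpf (36.1%). Over all genes within 2-fold at 0 hpf that share was 18.4%.

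Of the 14 genes higher in Mybx1 at 0 hpf, 4 were higher at 6 hpf and 10 were within 2-fold, where over all genes 815 of the 1261 higher at 0 hpf were higher at 6 hpf (64.6%) and 297 were within 2-fold. znf1176 had 12.9 FPKM in Mybx1 and 5.88 FPKM in WT at 6 hpf, against 16.4 FPKM in Mybx1 and 1.62 FPKM in WT at 0 hpf, where it was 10.2-fold (5.47 to 21.0) higher in Mybx1. znf1156 had 4.37 FPKM in Mybx1 and 4.63 FPKM in WT at 6 hpf, against 4.52 FPKM in Mybx1 and 0.218 FPKM in WT at 0 hpf, a difference of 20.7-fold (5.38 to 177) at 0 hpf. In both, the WT library at 0 hpf was the low one of the 4. znf488, whose mouse counterpart promotes oligodendrocyte maturation, had 6.76 FPKM in Mybx1 and no read in WT at 6 hpf, against 5.71 FPKM in Mybx1 and 0.506 FPKM in WT at 0 hpf. It was at least 33.0-fold higher in Mybx1 at 6 hpf and 11.3-fold (5.71 to 25.4) higher at 0 hpf.

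**Figure D4:**
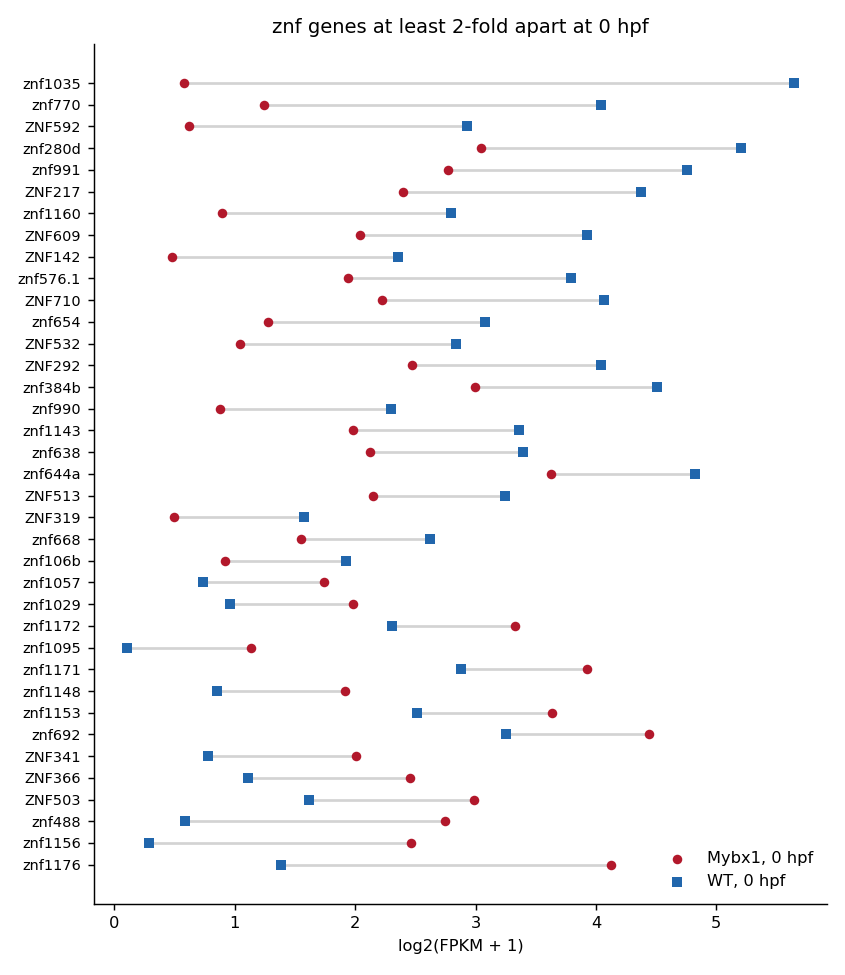
The level at 0 hpf on log2(FPKM + 1) of the 37 znf genes at least 2-fold apart between Mybx1 (red circles) and WT (blue squares), from the lowest to the highest in Mybx1 relative to WT. The upper 23 genes, from znf1035 with 0.491 FPKM in Mybx1 and 49.1 FPKM in WT, are lower in Mybx1, and the lower 14, down to znf1176 with 16.4 FPKM in Mybx1 and 1.62 FPKM in WT, are higher.

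The znf genes lower in Mybx1 at 0 hpf were long. Gene lengths were recovered from the same FPKM steps as the reads, and like the reads they are the smallest that fit the values. Their median was 1839 bases over the 181 genes, 1367 bases for the 4-digit genes and 2377 bases for the genes of up to 3 digits. The 23 lower genes had a median length of 4363 bases and the 14 higher genes one of 1172 bases, beside 1748 bases for the 144 within 2-fold. Over the whole table the medians were 1892 bases for lower genes, 1398 bases for higher genes and 1632 bases for those within 2-fold.

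Among the 45 znf genes longer than 2948 bases, 15 were lower and 1 higher in Mybx1 at 0 hpf, with a median difference of -0.48. In the same range of lengths 8.77% of 2838 genes of the whole table were lower and 5.64% higher. Among the 46 znf genes of up to 1180 bases, 2 were lower and 7 higher, with a median difference of 0.35, where 4.66% of 4718 genes of the whole table in that range were lower and 10.7% higher, with a median of 0.08. Across genes, Spearman's rho of length and the difference at 0 hpf was -0.43 for the znf genes, -0.43 for those of up to 3 digits, -0.21 for the 4-digit genes and -0.08 for all 15376 genes. These are descriptions: the points share 2 libraries, and length itself enters the FPKM of each gene in the same way in both. Length and symbol class overlapped. Of the 46 shortest znf genes 34 have 4-digit symbols, and of the 45 longest 41 have symbols of up to 3 digits. Of the 84 4-digit genes, 34 were below 1 FPKM in WT at 0 hpf. Such a gene cannot be called lower in Mybx1 on log2(FPKM + 1), so these counts are partly fixed by level. RNA integrity of the libraries is not given in the sources used here, and its part in the pattern by length was not tested.

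**Figure D5:**
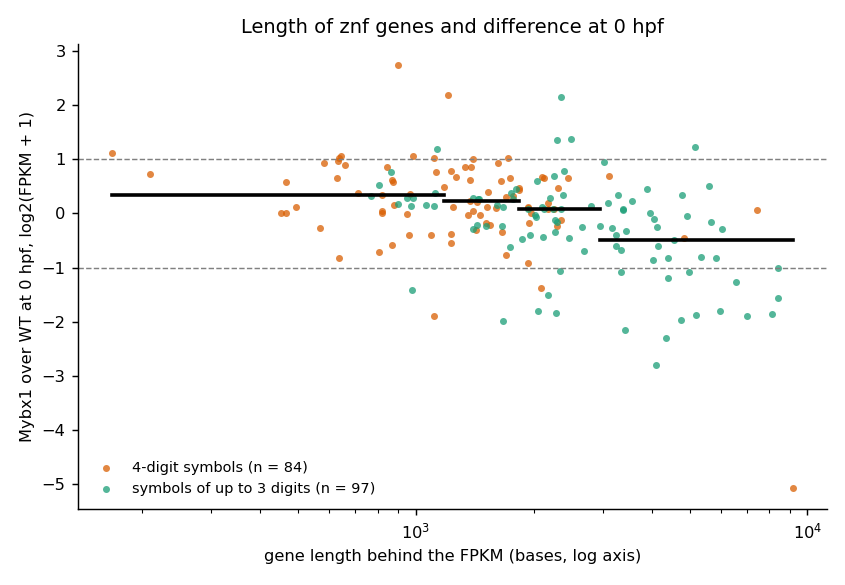
Each point is 1 of the 181 znf genes, with gene length in bases on a log axis and the difference of Mybx1 over WT at 0 hpf on log2(FPKM + 1); dashed lines mark 2-fold and black lines the median in each of 4 classes of length. The median is -0.48 in the class above 2948 bases, against 0.35 in the class of up to 1180 bases.

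By role, the znf genes whose human or mouse counterparts act on RNA, ribosomes or the spindle numbered 12 above the threshold, of 15 rows. For these lists of genes by role, the shares over all genes were, by stage, 7.81% risen and 6.78% fallen in Mybx1 and 21.4% and 40.9% in WT, and, in Mybx1 against WT, 39.6% higher and 19.1% lower at 6 hpf and 8.2% and 6.03% at 0 hpf. None of the 12 was past 2-fold by stage in Mybx1, while 3 rose and 3 fell in WT. At 6 hpf 4 were higher and 3 lower in Mybx1 than in WT, and at 0 hpf 0 were higher and 2 lower. ZNF622, a factor of large-subunit ribosome assembly, had 66.2 FPKM in Mybx1 and 29.3 FPKM in WT at 6 hpf, against 61.7 FPKM in Mybx1 and 56.5 FPKM in WT at 0 hpf. It was 2.26-fold higher in Mybx1 at 6 hpf. znf346, which in human cells binds double-stranded RNA, had 75.3 FPKM in Mybx1 and 116 FPKM in WT at 6 hpf, against 69.6 FPKM in Mybx1 and 55.8 FPKM in WT at 0 hpf. It rose 2.09-fold (1.82 to 2.40) in WT. ZNF598, a ubiquitin ligase of collided ribosomes, had 7.88 FPKM in Mybx1 and 5.11 FPKM in WT at 6 hpf, against 9.46 FPKM in Mybx1 and 12.1 FPKM in WT at 0 hpf, and fell 2.36-fold (1.89 to 2.96) in WT.

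Of 22 rows in a list of general and chromatin regulators, 19 were above the threshold. Among these 0 rose and 1 fell by stage in Mybx1, and 2 rose (10.5%) and 6 fell (31.6%) in WT. At 6 hpf 5 were higher and 9 lower in Mybx1 than in WT, with a median of -0.42 on the log2 scale, and at 0 hpf 0 were higher and 5 lower, with a median of -0.25. ZNF652, which in human cells represses transcription with a corepressor, had 23.2 FPKM in Mybx1 and 2.49 FPKM in WT at 6 hpf, against 24.8 FPKM in Mybx1 and 23.4 FPKM in WT at 0 hpf. It fell 9.39-fold (6.57 to 13.8) in WT. ZNF384 was 1 of the 2 that rose, with 3.04 FPKM in Mybx1 and 16.7 FPKM in WT at 6 hpf, against 1.08 FPKM in Mybx1 and 1.33 FPKM in WT at 0 hpf. It was 5.49-fold (3.94 to 7.81) lower in Mybx1 at 6 hpf.

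Of 14 rows in a list of developmental regulators, 9 were above the threshold. None of the 9 was past 2-fold by stage in Mybx1 on log2(FPKM + 1), while 2 rose (22.2%) and 4 fell (44.4%) in WT, shares near those of all genes. At 6 hpf 1 was higher and 3 lower in Mybx1, and at 0 hpf 1 was higher and 3 lower. The 2 that rose in WT were ZNF503 and ZNF703, relatives that shape the hindbrain and the eye in zebrafish. ZNF503 had 5.51 FPKM in Mybx1 and 10.4 FPKM in WT at 6 hpf, against 6.92 FPKM in Mybx1 and 2.07 FPKM in WT at 0 hpf. It rose 5.04-fold (3.53 to 7.34) in WT and was 3.35-fold (2.32 to 4.93) higher in Mybx1 at 0 hpf. ZNF703 had 0.674 FPKM in Mybx1 and 6.14 FPKM in WT at 6 hpf, against 0.0464 FPKM in Mybx1 and 0.224 FPKM in WT at 0 hpf. It was 9.12-fold (5.02 to 18.2) lower in Mybx1 at 6 hpf. ZNF703 was below 1 FPKM in all libraries but WT at 6 hpf, through which it passed the threshold on the mean. Its rise in WT and this gap were thus conditions of its choice. Its FPKM ratio by stage in Mybx1 was 14.5-fold (2.15 to 620), from 12 reads at 6 hpf and 1 read at 0 hpf, while on log2(FPKM + 1) the change was 0.68, below the call. znf423, which in human and rodent cells works with the BMP-activated Smad proteins, had 6.22 FPKM in Mybx1 and 2.63 FPKM in WT at 6 hpf, against 8.50 FPKM in Mybx1 and 12.3 FPKM in WT at 0 hpf, and fell 4.67-fold (3.65 to 6.05) in WT.

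On 7 symbols, 2 identifiers each were above the threshold, and the members of such a pair often differed. ZNF609, known in mouse for binding the cohesin loader, was measured as ENSDARG00000103388, with 49.4 FPKM in Mybx1 and 11.2 FPKM in WT at 6 hpf, against 45.9 FPKM in Mybx1 and 43.9 FPKM in WT at 0 hpf. The other identifier, ENSDARG00000104530, had 3.04 FPKM in Mybx1 and 20.3 FPKM in WT at 6 hpf, against 3.10 FPKM in Mybx1 and 14.2 FPKM in WT at 0 hpf. At 6 hpf the first was 4.40-fold (3.82 to 5.09) higher in Mybx1 and the second 6.67-fold (5.54 to 8.09) lower. ZNF281 also had a second identifier, ENSDARG00000000567, with 8.21 FPKM in Mybx1 and 33.7 FPKM in WT at 6 hpf, against 6.18 FPKM in Mybx1 and 4.03 FPKM in WT at 0 hpf. It rose 8.36-fold (7.11 to 9.87) in WT, where the abundant ZNF281 stayed within 2-fold. ZNF207, a spindle protein in human cells, had as ENSDARG00000101277 a level of 6.04 FPKM in Mybx1 and 25.9 FPKM in WT at 6 hpf, and was 4.29-fold (3.28 to 5.66) lower in Mybx1, while ENSDARG00000015538, with 58.5 FPKM in Mybx1 and 71.3 FPKM in WT, was within 2-fold.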

How the data were processed

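Embryo RNA was isolated with Trizol, cleaned with DNase I and RNeasy columns, freed of ribosomal RNA with Ribo-zero and made into NEBNext libraries, per the labels' protocols. The authors deposited 1 table of FPKM values, with a column for each of the 4 libraries and 0 columns of other samples. HTSeq 0.6.1, TopHat2 2.0.12, Bowtie2 2.2.3 and the build GRCz10 are listed, without roles, in the submitters' processing notes. The FPKM formula, the annotation release and the strand setting are not given in the sources used here.

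Symbols came from a table that pairs identifiers with names (26099 of 31870). A symbol was found in the RefSeq gene table for 100 of the 181 znf genes (55.2%), so no check by position was made and no coordinates or sequences are given. Python 3.11.15, pandas 2.3.3, numpy 2.4.6, scipy 1.17.1 and matplotlib 3.10.9 were used. Library totals, smallest whole reads and gene lengths were recovered from the steps of low FPKM values. The smallest reads add up to between 88.8% and 93.3% of the totals and are lower limits. With respect to this recovery alone, intervals are if anything too wide. Duplicate reads and variation between libraries are not covered and would widen them. The recovery was tested on simulated data whose gene lengths came from this same recovery, so the test was not independent of it. Differences are on log2(FPKM + 1), called at 2-fold, for genes with a mean of at least 1 FPKM over 4 libraries. A fold against a library with no read is a bound against 3 reads, with no allowance for counting error in the library compared. Without molecular identifiers, intervals and bounds reflect counting error alone.

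Named were the 5 largest rises and falls on log2(FPKM + 1) of each of the 4 comparisons and the 5 highest means. The 2 genes on each side of the threshold and members of the role lists were named too. The genes and lists were chosen with earlier results of these data known. Alternatives were pseudocounts of 0.1 and 5, a mean of at least 5 FPKM, no filter, a mean of at least 1 FPKM in the 2 libraries compared, TPM, median-ratio size factors, and symbols of 1 identifier only.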

Additional observations from a re-analysis of the deposited data

How the results depend on the processing

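No paired analysis was possible because the labels carry no replicate numbers and each group has 1 library; for the same reason no library could be left out. At 6 over 0 hpf in Mybx1, where 12 genes rose and 6 fell, rises numbered 26 with a pseudocount of 0.1, 4 with a pseudocount of 5, 3 at a mean of at least 5 FPKM and 19 in TPM, and falls 15 and 2 with the pseudocounts of 0.1 and 5. In WT, with 64 rises and 37 falls, rises numbered 29 with a pseudocount of 5 and 16 at a mean of at least 5 FPKM, falls 22 with a pseudocount of 5 and 23 with median-ratio factors, and the median of 0.29 became -0.41 at a mean of at least 5 FPKM and 0.93 with median-ratio factors. The median of the 4-digit genes in WT, 1.08, turned to -0.12 at a mean of at least 5 FPKM, which left 26 of them among 95 znf genes. At 6 hpf, with 29 higher and 66 lower in Mybx1, higher genes numbered 16 with a pseudocount of 5 and 16 with median-ratio factors, lower genes 28 with a pseudocount of 5 and 25 at a mean of at least 5 FPKM, and the median of -0.48 became 0.20 at that mean and -1.07 with median-ratio factors. At 0 hpf, with 14 higher and 23 lower, higher genes numbered 33 and 1 with pseudocounts of 0.1 and 5, 7 at a mean of at least 5 FPKM and 8 with median-ratio factors, and lower genes 11 with a pseudocount of 5 and 13 at a mean of at least 5 FPKM. The higher mean and the larger pseudocount take out or shrink genes of low level by construction; otherwise the cause was not tested. Over 71 changes of named genes past 2-fold and 8 alternatives, 502 values kept their call and 0 reversed. Another 35 kept their direction but not the call, 25 of them with a pseudocount of 5. A gene left out by the filter of an alternative gave no value there. The filters and the limit to symbols of 1 identifier leave a gene's value as it is, so they could only keep the call. A change of pseudocount cannot reverse a direction. Most named genes were also picked for large changes, so these counts were largely fixed in advance. Depth limits the 4-digit genes most, with 3 of them under 30 reads in all 4 libraries together.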

Other observations

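Of rows with the symbol prefix of another zinc finger family, 189 of 254 were above the threshold. They were picked by prefix alone, with no check that each protein holds a zinc finger. By stage, 6 of the 189 rose and 9 fell in Mybx1, and 36 rose (19.0%) and 81 fell (42.9%) in WT. At 6 hpf 82 of them were higher (43.4%) and 35 lower (18.5%) in Mybx1 than in WT, with a median difference of 0.62 on the log2 scale. Over all genes 7.81% rose and 6.78% fell in Mybx1, 21.4% rose and 40.9% fell in WT, and 39.6% were higher and 19.1% lower in Mybx1 at 6 hpf with a median of 0.58, so the shares in WT and at 6 hpf lay near those of all genes. The genes with zbtb symbols, most of whose proteins join zinc fingers to a BTB domain, counted 38. They had no stage change past 2-fold in Mybx1 and 4 rises (10.5%) and 18 falls (47.4%) in WT. The rnf genes, RING-finger proteins that are mostly ubiquitin ligases, counted 64, with 34 higher (53.1%) and 7 lower (10.9%) in Mybx1 at 6 hpf. Of 10 prdm genes, 5 rose and 2 fell in WT, and 1 was higher and 6 lower in Mybx1 at 6 hpf. Of 4 zic genes, 3 rose and 1 fell in WT, and 1 was higher and 3 lower at 6 hpf. The 2 sall and 2 gli genes rose in WT and were lower in Mybx1 at 6 hpf. Of 12 klf genes, 5 rose and 4 fell in WT, with 4 higher and 4 lower at 6 hpf. The pooled shares thus did not hold for each family, and some genes could pass the threshold through WT at 6 hpf alone. No test of the difference between these families and the znf genes was made.

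Of 20 genes of heterochromatin and corepressor complexes, among them partners of zinc finger repressors in mammals, 1 rose and 0 fell by stage in Mybx1, and 4 rose (20.0%) and 7 fell (35.0%) in WT. At 0 hpf 0 were higher and 2 lower in Mybx1 than in WT, where 8.2% of all genes were higher and 6.03% lower. These counts too lay near the shares of all genes. The 2 were tasor2, with 3.74 FPKM in Mybx1 and 70.5 FPKM in WT, and tasora, with 11.6 FPKM in Mybx1 and 35.4 FPKM in WT, relatives of a subunit of the human silencing complex HUSH. Other genes of the list tied to that complex, tasorb, MPHOSPH8 and PPHLN1, stayed within 2-fold at 0 hpf. Their differences were -0.87, -0.13 and 0.12 on the log2 scale. Symbols of the list that were not found are not among the 20. At 6 hpf 5 of the 20 were higher and 4 lower in Mybx1, with a median difference of -0.09, beside 39.6% and 19.1% of all genes. The corepressor gene RCOR1 was the furthest above WT, with 115 FPKM in Mybx1 and 8.94 FPKM in WT at 6 hpf. At 0 hpf it had 104 FPKM in Mybx1 and 94.6 FPKM in WT. The furthest below WT at 6 hpf was tasor2, with 8.52 FPKM in Mybx1 and 86.8 FPKM in WT.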
